A study of Mus musculus with 51 samples.

Results

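Cytokines are secreted proteins through which immune and stromal cells signal to each other. Chemokines are the cytokines that attract cells along a gradient and are read by G-protein-coupled receptors, while most interleukins, interferons and colony-stimulating factors act on receptors that pass their signal to Janus kinases and STAT transcription factors, and ligands of the tumour necrosis factor (TNF) family act on trimeric receptors that lead to NF-kappaB. A hybridoma descends from an antibody-forming B cell, a cell type known for its response to interleukins and to interferons.

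The mouse genes of these families were taken from arrays that carried spots for 7920 features, of which 5347 had a single gene symbol in the platform annotation. A probe was included where its symbol was Il, Ccl, Cxcl, Ccr or Cxcr followed by a digit, or began with Tnf, Ifn or Csf. The rule found 32 probes of 29 genes, among 4200 genes with a symbol. They comprised 1 interleukin (Il25), 1 soluble interleukin-binding protein (Il18bp), 9 probes of interleukin receptors, 4 of chemokines, 5 of chemokine receptors, 2 of TNF ligands, 3 of TNF receptors, 2 of interferon receptors and 2 of colony-stimulating factor receptors. The other 3 probes, of Tnfaip1, Tnfaip3 and Tnfaip8l2, met the rule by their prefix but encode intracellular proteins named for induction by TNF, not cytokines or receptors. The rule used no measured value.

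The arrays compared an RNA with itself. Both channels held RNA of CRL1606, a hybridoma made from spleen cells of an immunised BALB/c mouse and the P3-X63-Ag8 myeloma, which secretes an antibody to human fibronectin and was grown in suspension in shake flasks in serum-free medium. Per the labels, channel 1 received spikes of 100 genes and channel 2 spikes of 100 other genes, with the same amount of each on a given array. The 0, 0.05, 0.1, 0.25, 0.5 and 0.75 pmol groups had 6 arrays each and the 0.025, 0.15, 0.2, 1 and 2 pmol groups had 3 each, 51 arrays in all, of 1 cell line, and nothing in the labels says whether replicates came from separate cultures. P-values therefore cover only the array-to-array spread, possibly technical. From its title, the series served to evaluate how methods pick out changed genes. A log2 ratio of an RNA to itself holds no expression level, so neither the label of the line nor the presence of any of these mRNAs could be checked, and all values below are ratios between the channels, centred on the median of each array. Since no source used here states the numerator channel, a ratio is called positive or negative and not higher in a channel.

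The arrays measured between 8370 and 16862 of 16896 spots, not counting 1074 values at an upper limit that were treated as missing, and the 3 arrays at 1 pmol measured the fewest. Each probe was printed as a pair of spots, whose values correlated across the array with r between 0.198 and 0.976. A clustering of the arrays on features outside these gene families, the cluster number set at 8, put the unspiked replicates 1 to 3 in a set of their own. It put unspiked replicates 4 to 6 in a set with replicates 4 to 6 at 0.1 pmol and replicates 1 to 3 at 0.75 pmol. Among the 32 probes, 10 were measured on all 51 arrays, and the fewest arrays, 45, measured Il7r, the receptor chain for interleukin 7. No source used here lists which genes were spiked. None of the 32 probes lay among the 100 highest or the 100 lowest mean ratios at 2 pmol, which began at 3.99 and ended at -2.44. The means of the 32 probes at 2 pmol ran from -1.59 for Il6st to 0.97 for an Il17re probe.

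**Figure D1:**
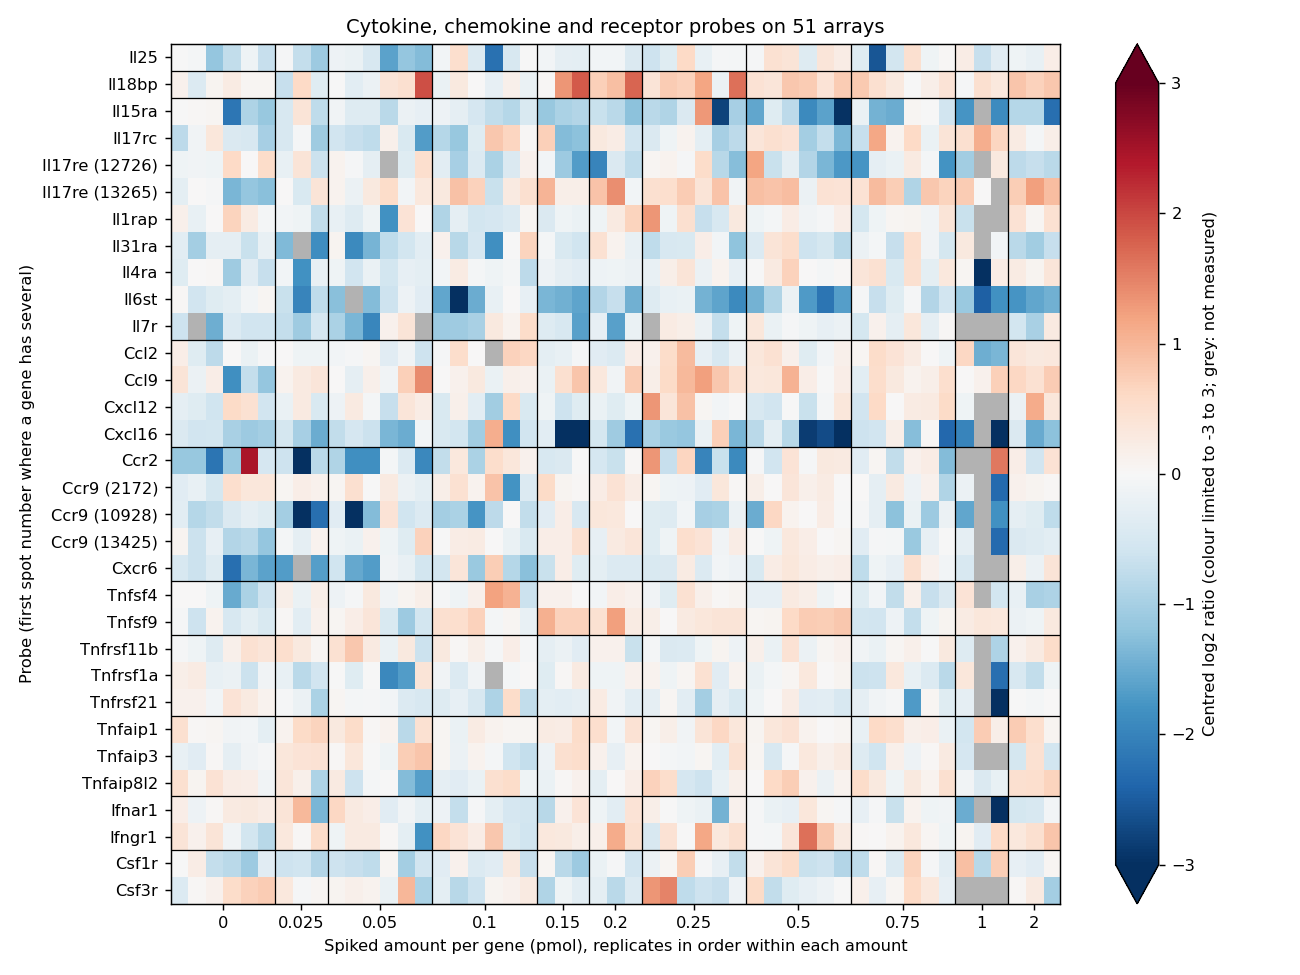
Centred log2 ratio of each of the 32 probes (vertical, grouped by role) on each of the 51 arrays (horizontal, grouped by spiked amount in pmol), with blue for negative, red for positive and grey for values not measured. Il6st is blue on 43 of its 44 measured spiked arrays, 1 probe of Il17re turns from blue on unspiked replicates 4 to 6 to red on most spiked arrays, and the grey cells gather on the arrays at 1 pmol.

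The unspiked arrays show where these probes lie when neither channel is spiked. The mean over the 6 arrays at 0 pmol passed the threshold for 6 of 32 probes, all with a negative mean, the threshold being a limma adjusted p (Benjamini-Hochberg over all 7920 features) under 0.05. Over all features 25.2% passed, 15.2% with a negative mean. The median offset was -0.25 over the 32 probes and -0.06 over all features.

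The 6 probes were those of Cxcr6, Il7r, Ccl9, Tnfsf4, 1 of Il17re and 1 of Ccr9. Cxcr6, the receptor for the chemokine Cxcl16, had log2 ratios of -0.47, -0.64, -0.39, -2.26, -1.37 and -1.61 on unspiked replicates 1 to 6. All were negative, and replicates 4 to 6 lay below all of replicates 1 to 3. Its mean was -1.12 (SE 0.22, limma adjusted p 0.000191). The Il17re probe at spot 13265, for a receptor chain of the interleukin 17 family, read -0.30, -0.00, -0.03, -1.38, -1.15 and -1.26. Its mean of -0.69 (SE 0.21, limma adjusted p 0.012) thus came from values near 0 on the first 3 arrays and values below -1.1 on the other 3. Ccl9, a chemokine for myeloid cells, read 0.38, -0.17, 0.21, -1.85, -0.71 and -1.17. Tnfsf4, the OX40 ligand that costimulates T cells, read 0.01, -0.00, -0.14, -1.52, -0.96 and -0.63. Both therefore showed the same split between the replicates, and both lost their call without unspiked replicate 4, 5 or 6 (adjusted p from 0.0544 to 0.32). The Il17re offset lost its call without the same arrays (adjusted p from 0.0639 to 0.0826), and only that of Cxcr6 held without any single array. The offset of the Ccr9 probe at spot 13425, -0.61 (limma adjusted p 0.00626), lost its call without replicate 6 alone (0.0508). Il7r, measured on 5 arrays, did not follow the split, with -0.61, -1.46, -0.40, -0.57 and -0.57 on replicates 1 and 3 to 6, a mean of -0.72 (limma adjusted p 0.0342) that lost its call without replicate 1, 3, 5 or 6 (adjusted p from 0.0522 to 0.17).

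Unspiked replicates 1 to 3 and 4 to 6 did not overlap for 16 of 32 probes, 9 lower and 7 higher in replicates 4 to 6, against 47.3% of all features. Of 7859 features compared, 1468 (18.7%) were lower and 2251 higher in replicates 4 to 6, where 28.1% of the 32 probes were lower. The median absolute gap between the means of the 3 and the 3 arrays was 0.51 over the 32 probes and 0.42 over all features. Il15ra, the high-affinity chain for interleukin 15, stood at -0.01, 0.04 and 0.06 and then at -2.17, -0.92 and -1.14. In the opposite direction, Csf3r, the receptor for granulocyte colony-stimulating factor, stood at -0.40, 0.04 and 0.14 and then at 0.54, 0.70 and 0.75. With replicates 1 to 3 as the only unspiked arrays, 0 of the 32 probes had a mean off 0 by limma (8 at most when any single unspiked array was left out, and 1 at least, without replicate 6), and with replicates 4 to 6 alone, 7 did. The deposited values themselves differed between these arrays: on replicates 4 to 6, 17 of 188 spot values of the 32 probes (9.04%) equalled log2 of a ratio between 1 and a whole number up to 4, within 0.0006, and on replicates 1 to 3, 0 of 185 did. Over all spots the shares were 7.34% and 0.245%. The called probes of Cxcr6, Il17re, Ccl9, Tnfsf4 and Ccr9 had 0 such values on replicates 4 to 6, and Il7r had 2. Their part in the offsets was not tested beyond these counts.

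**Figure D2:**
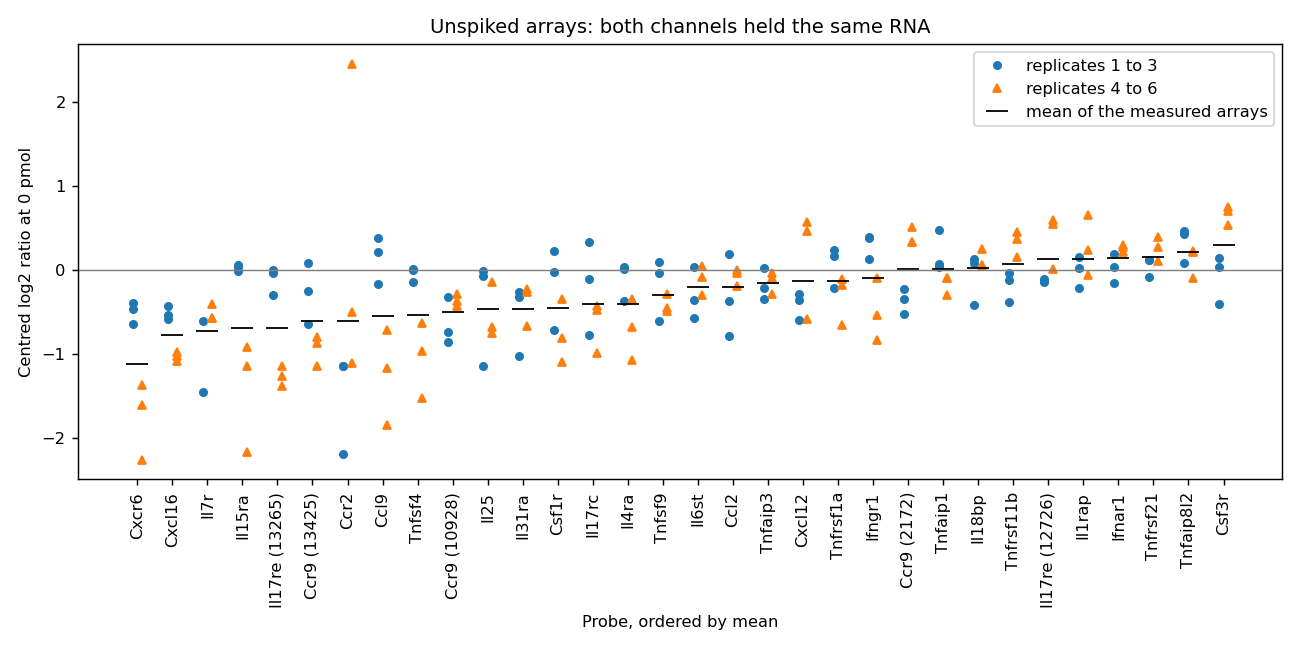
Centred log2 ratio of each probe (horizontal, ordered by mean) on the 6 unspiked arrays, with circles for replicates 1 to 3, triangles for replicates 4 to 6 and dashes for the mean. Cxcr6 is the lowest at -1.12, and for Il17re at spot 13265, Ccl9, Tnfsf4 and Il15ra the triangles sit below all circles.

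The spread of these probes was near that of the array as a whole. Over the 31 probes measured on all 6 unspiked arrays the SD had a median of 0.35 and a range of 0.15 to 1.60, against a median of 0.36 over all features so measured. The residual SD of the fit to all 51 arrays had a median of 0.51 for them and 0.49 for all features, and the paired spots of a probe differed by a median of 0.18 and 0.15. The widest unspiked spread was that of Ccr2, the receptor for the monocyte chemokine Ccl2, with -1.14, -1.14, -2.19, -1.11, 2.46 and -0.50 (SD 1.60). A single value, on replicate 5, stood apart there and rests on 1 spot of the pair, and with the first spots alone the SD was 0.86. Il15ra (SD 0.90) and Ccl9 (SD 0.86) followed, each through the split between replicates 1 to 3 and 4 to 6. The narrowest were Tnfaip3, the ubiquitin-editing inhibitor of NF-kappaB (SD 0.15), Tnfrsf21, a death receptor (SD 0.16), and Ifnar1, a chain of the type I interferon receptor (SD 0.17). A narrow unspiked spread did not carry over to all amounts: Tnfrsf21 and Ifnar1 fell far at 1 pmol, as described below.

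Each spiked amount was compared with 0 pmol. Of the 32 probes, 17 (53.1%) passed in none of the 10 comparisons, against 46.6% of all features, and 1 (3.12%) passed in 5 or more, against 7.90%. All 10 comparisons use the same 6 unspiked arrays, so their counts are not independent. At 0.025 pmol 1 probe passed, with a negative difference, where 4.98% of all features did, 3.31% with a negative one. At 0.05 pmol 0 passed by limma, where 4.15% of all features did, and 6 had an unadjusted p under 0.05; the alternatives gave 0 to 4. At 0.1 pmol 2 probes passed, both positive, against 6.26% of all features, 4.09% positive. These low amounts hence had at most 2 called probes each.

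At 0.15 pmol 4 probes passed, all positive, against 10.7% of all features, 6.79% positive. At 0.2 pmol 3 did, all positive, against 8.89% and 6.03%, and at 0.25 pmol 4 did, all positive, against 13.0% and 8.98%. At 0.5 pmol 6 of 32 passed, 5 positive and 1 negative, against 25.1%. The share of the 32 probes was thus 12.5%, 9.38%, 12.5% and 18.8% in turn, on both sides of the share over all features. At 0.75 pmol 2 probes passed, both positive, against 7.49%, 4.92% positive. At 2 pmol 4 did, 3 positive and 1 negative, against 15.6%. At 1 pmol 25 of 32 probes had the 2 arrays a test needed, and 9 passed, 3 positive and 6 negative, against 42.5% of all features. The largest count thus fell on the 3 arrays with the fewest measured spots. The split at 0.5 and 2 pmol changed with centring: on the deposited values without it, all 30 probes called at 0.5 pmol and all 14 called at 2 pmol were positive, where the median difference over all features was 2.05 and 1.41. Over all features without centring, 7171 were called positive and 60 negative at 0.5 pmol, and 2782 and 81 at 2 pmol. At 0.25 pmol 2 of the 32 probes were called without centring, both positive, and 0 at the other amounts.

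**Figure D3:**
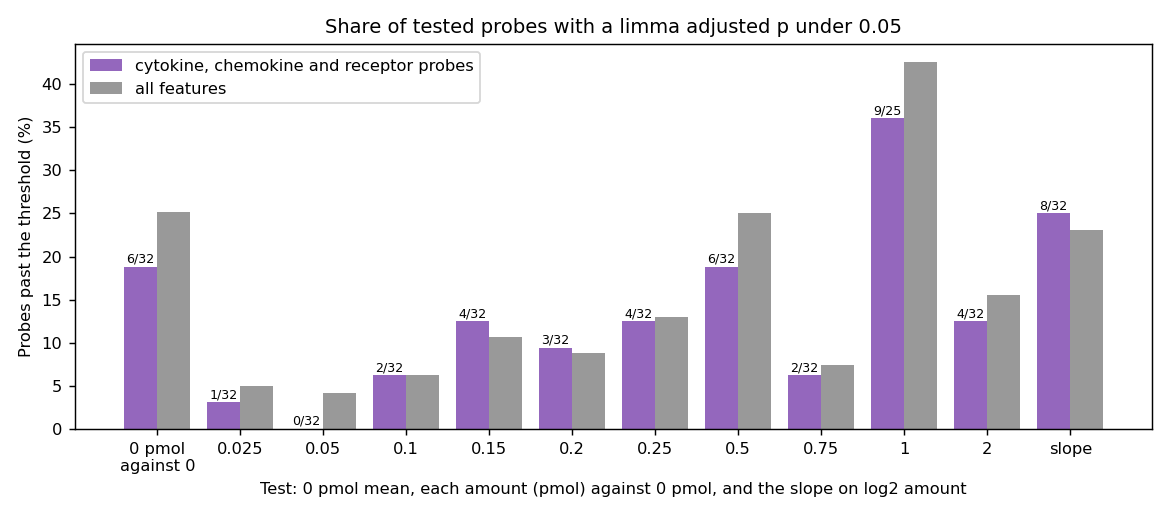
Share of tested probes with a limma adjusted p under 0.05 (vertical, %) for the 0 pmol mean, for each amount against 0 pmol and for the slope on log2 amount (horizontal), with purple bars for the cytokine, chemokine and receptor probes, labelled with called over tested, and grey bars for all features. The purple bar is the higher of the pair at 0.15 and 0.2 pmol and for the slope, and at 1 pmol both bars are at their highest.

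The interleukin 17 receptor chain Il17re had the most calls. Its probe at spot 13265 passed at 8 of 10 amounts, every time positive, the exceptions being 0.025 and 0.05 pmol. At 2 pmol it read 0.73, 1.24 and 0.93, above its highest unspiked value of -0.00, where 29.0% of all features had no overlap. The difference was 1.65 (SE 0.36, limma adjusted p 0.000539), a 3.14-fold change of the ratio. Across the other called amounts the difference ran from 1.01 (0.1 pmol) to 1.41 (0.2 pmol). Over all 44 spiked arrays that measured it, the lowest value was -0.90, the median 0.46 and the highest 1.40, and 35 were positive. The size of these differences moved with the unspiked arrays used. Against replicates 1 to 3 alone the 2 pmol difference was 1.08 (limma adjusted p 0.0636) and against replicates 4 to 6 alone it was 2.23 (2.8e-05), and none of the 8 amounts passed against replicates 1 to 3. Within the array set of unspiked replicates 4 to 6, the difference was 1.29 at 0.1 pmol (limma adjusted p 0.0304) and 1.96 at 0.75 pmol (0.0021). The calls at 0.1, 0.15, 0.2 and 1 pmol were lost without 5, 6, 1 and 3 single arrays in turn (limma adjusted p up to 0.191). Unspiked replicates 4, 5 and 6 were among these arrays at 0.1, 0.15 and 1 pmol. The 1 pmol call rests on 2 arrays, at 0.77 and 0.01, and without either of them no test could be made. The call at 0.2 pmol was lost without 0.2 pmol replicate 2 (1.07, adjusted p 0.139). The calls at the other amounts held without any single array.

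The other Il17re probe, at spot 12726, lists the same sequence accession on the platform and moved the other way. At 2 pmol it read -0.79, -0.70 and -0.82, and on the unspiked arrays -0.14, -0.11, -0.13, 0.60, 0.01 and 0.55. Its difference was negative at all 10 amounts, from -1.19 to -0.14, and passed at none. At 2 pmol it was -0.90 (SE 0.46). The probe at spot 13265 was the higher of the pair on 36 of 42 spiked arrays that measured both, and on 2 of 6 unspiked arrays. Their differences from 0 pmol at 2 pmol were 2.55 apart, a gap at percentile 94.8 among 1471 pairs of features with a shared accession, whose median gap was 0.61 and of which 47.2% had opposite signs. What each probe carries could not be compared, since the probe sequences were not used here.

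Ccr9, the gut-homing receptor for the chemokine Ccl25, had 3 probes, which differed from 0 pmol by nearly the same at 2 pmol, 0.03 to 0.20 apart. Their calls did not match at the lower amounts. Over the 50 arrays that measured both probes of a pair, the 3 pairs differed by medians of 0.33, 0.52 and 0.53. The median over 1471 pairs of features with a shared accession was 0.48. At 1 pmol all 3 estimates were negative, from -1.27 to -0.70. The probe at spot 13425 passed at 0.15, 0.25 and 0.5 pmol with differences of 0.90, 0.69 and 0.68, calls that were lost without 6, 7 and 5 single arrays in turn (adjusted p up to 0.181), unspiked replicates 4, 5 and 6 among them each time, while that at spot 2172 passed only at 1 pmol (-1.27, limma adjusted p 0.00929, from -0.17 and -2.34 on the 2 arrays that measured it). The probe at spot 10928 passed at 0.025 pmol alone, where it read -1.01, -5.89 and -2.27 against unspiked values between -0.86 and -0.28. The difference there was -2.56 (SE 0.65, limma adjusted p 0.00992). Without 0.025 pmol replicate 2, the array at -5.89, it was -1.14 (adjusted p 0.41), and with the first spot of each pair alone -1.41 (0.0962). This probe also read -4.65 on 0.05 pmol replicate 2, where the other 5 arrays lay between -1.31 and 0.42. The values of -5.89 and -4.65 each rest on 1 spot of the pair.

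**Figure D4:**
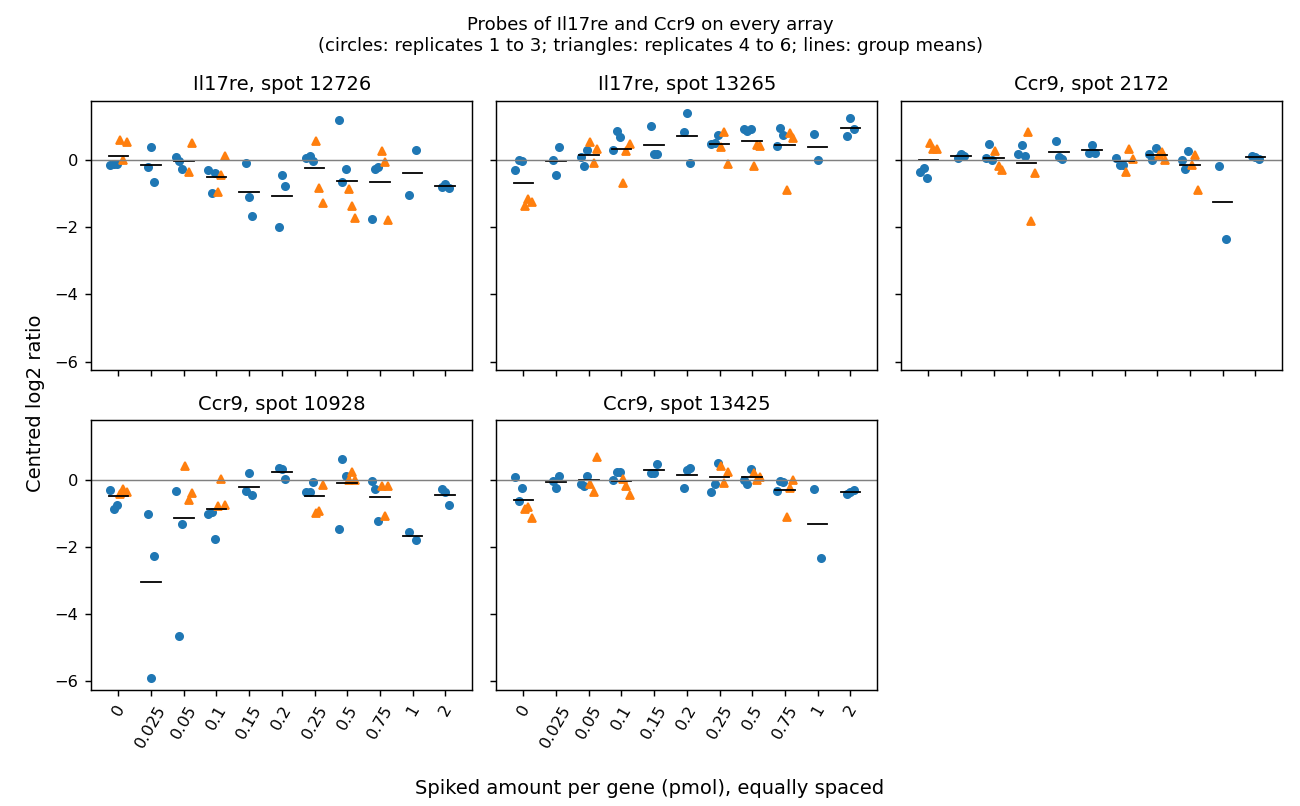
Centred log2 ratio (vertical) of the probes of Il17re and Ccr9 on every array by spiked amount (horizontal, pmol, equally spaced), with circles for replicates 1 to 3, triangles for replicates 4 to 6 and lines for group means. The Il17re probe at spot 13265 rises to 0.97 at 2 pmol while that at spot 12726 lies at -0.77, and the Ccr9 probe at spot 10928 has single values at -5.89 and -4.65.

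Among the other interleukin receptors, Il6st, the gp130 chain shared by receptors of the interleukin 6 family, was the one with called negative differences. Its 6 unspiked arrays read 0.04, -0.57, -0.36, -0.30, -0.08 and 0.05, without a split between the replicates. Of 44 spiked arrays that measured it, 43 were negative, with a lowest value of -3.02, a median of -1.19 and a highest of 0.00. At 2 pmol it read -1.77, -1.55 and -1.44, the last from 1 spot of the pair because the other was at the upper limit. The 3 values lay below all unspiked ones, and 29.0% of all features likewise had no overlap at 2 pmol. The difference was -1.38 (SE 0.45, limma adjusted p 0.0254), and it missed the threshold without any one of these arrays (adjusted p from 0.0686 to 0.11). Kept at its value, the spot at the upper limit turned the difference to 1.68 (adjusted p 0.25). At 0.5 pmol the arrays read -1.42, -0.91, -0.17, -1.70, -2.18 and -1.66, a difference of -1.14 (limma adjusted p 0.0177), and at 1 pmol they read -1.12, -2.46 and -1.82, a difference of -1.59 (0.00354). The 0.5 pmol difference was 0.28 (adjusted p 0.749) when array set was a term of the fit, and 0.89 (0.133) on values that were not centred.

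The replicates of Il6st also split within an amount. At 0.1 pmol replicates 1 to 3 read -1.57, -3.02 and -1.50 and replicates 4 to 6 read -0.23, 0.00 and -0.25. At 0.25 pmol the order was the reverse, with -0.39, -0.23 and -0.20 and then -1.42, -1.58 and -1.92. At both amounts the 3 and the 3 arrays did not overlap, and they shared no array set. The share of all features that split in this way at these amounts was not counted. Between unspiked replicates 1 to 3 and 4 to 6 it was 47.3%, so the split is not shown to be particular to Il6st.

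The remaining interleukin receptors had few calls. Il17rc, a partner chain of interleukin 17 receptors, passed at 1 pmol alone with 0.49, 1.08 and 0.65 against unspiked values from -0.99 to 0.34, a difference of 1.15 (SE 0.43, limma adjusted p 0.0294); it missed the threshold without 1 pmol replicate 2 or 3 or unspiked replicate 1 or 6 (adjusted p from 0.0507 to 0.126). The accessory chain Il1rap of the interleukin 1 receptor, the interleukin 15 chain Il15ra, Il31ra, which binds interleukin 31, and Il4ra, shared by the receptors for interleukins 4 and 13, passed at no amount. Neither did Il7r. Il15ra was nonetheless negative on 41 of the 44 spiked arrays that measured it, with a median of -0.79, from an unspiked mean of -0.69. Il4ra lay within 1 log2 unit of 0 on all but 2 of its spiked arrays, 0.025 pmol replicate 2 at -1.82 and 1 pmol replicate 2 at -3.22. Of the secreted interleukin proteins, Il25, which drives type 2 responses, passed at no amount and ran from -2.56 to 0.60 over the spiked arrays. Il18bp, the decoy that neutralises interleukin 18, read 0.03, 1.32 and 1.85 at 0.15 pmol and 0.72, 0.91 and 1.75 at 0.2 pmol, against unspiked values from -0.42 to 0.25. Its differences were 1.04 (limma adjusted p 0.0465) and 1.10 (0.0385), and each lost its call in the absence of several single arrays, 8 and 5 in turn (adjusted p up to 0.399).

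Of the 4 chemokines, Ccl9 was called most. At 2 pmol it read 0.63, 0.45 and 0.76, above all unspiked values (highest 0.38), where 29.0% of all features had no overlap. The difference was 1.16 (SE 0.34, limma adjusted p 0.0114), and it was 1.09 (0.0723) without 2 pmol replicate 3. It also passed at 0.25 pmol (1.26, adjusted p 0.000864), 0.5 pmol (0.90, 0.0126) and 1 pmol (0.84, 0.0397), and its estimate was positive at all 10 amounts. Without unspiked replicate 4, at -1.85, the 0.5 pmol difference was 0.64 (0.0727). The 1 pmol call was lost without 5 single arrays, unspiked replicates 4, 5 and 6 among them (limma adjusted p from 0.0618 to 0.193). Against unspiked replicates 1 to 3 alone, the 2 pmol difference was 0.47 (0.442), and the calls at 0.25, 0.5 and 1 pmol were lost too. Cxcl16, the transmembrane ligand of Cxcr6, passed at 1 pmol alone, where it read -1.99 and -4.63 on 2 arrays against unspiked values from -1.08 to -0.43. The difference was -2.54 (SE 0.80, limma adjusted p 0.00937), and -2.03 (0.0677) with the second spots alone. Equally low values occurred elsewhere, -3.54 and -4.42 on 0.15 pmol replicates 2 and 3 and -2.85, -2.69 and -4.42 on 0.5 pmol replicates 4 to 6, 5 arrays that fell in the same array set. Its residual SD of 1.04 was the highest among the 32 probes. The monocyte attractant Ccl2 and the stromal chemokine Cxcl12 passed at no amount, with spiked values from -1.47 to 0.96 and from -1.05 to 1.32.

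Of the chemokine receptors other than Ccr9, Cxcr6 passed at 0.25, 0.5, 0.75 and 2 pmol, each time positive. At 2 pmol it read 0.18, -0.17 and 0.38, above its highest unspiked value of -0.39, where 29.0% of all features had no overlap. The difference was 1.25 (SE 0.37, limma adjusted p 0.0147), and 0.63 (0.372) against unspiked replicates 1 to 3 alone. At 0.5 pmol it read -0.46, 0.23, 0.33, 0.23, 0.16 and 0.19, a difference of 1.24 (SE 0.30, adjusted p 0.00233). The called differences were thus between groups with means near 0 and unspiked arrays below 0. Unspiked replicates 4 to 6 lay well below 0 (-2.26 to -1.37), and replicates 1 to 3 less so (-0.64 to -0.39). Against replicates 1 to 3 alone none of these calls held, and that at 0.5 pmol was also lost with array set as a covariate. The differences at 0.25, 0.75 and 2 pmol lost their call in the absence of single arrays, 6, 6 and 3 in turn (adjusted p up to 0.154), unspiked replicate 4 among them each time. Ccr2 passed at no amount, with spiked values from -4.37 to 1.58 and a residual SD of 1.01.

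**Figure D5:**
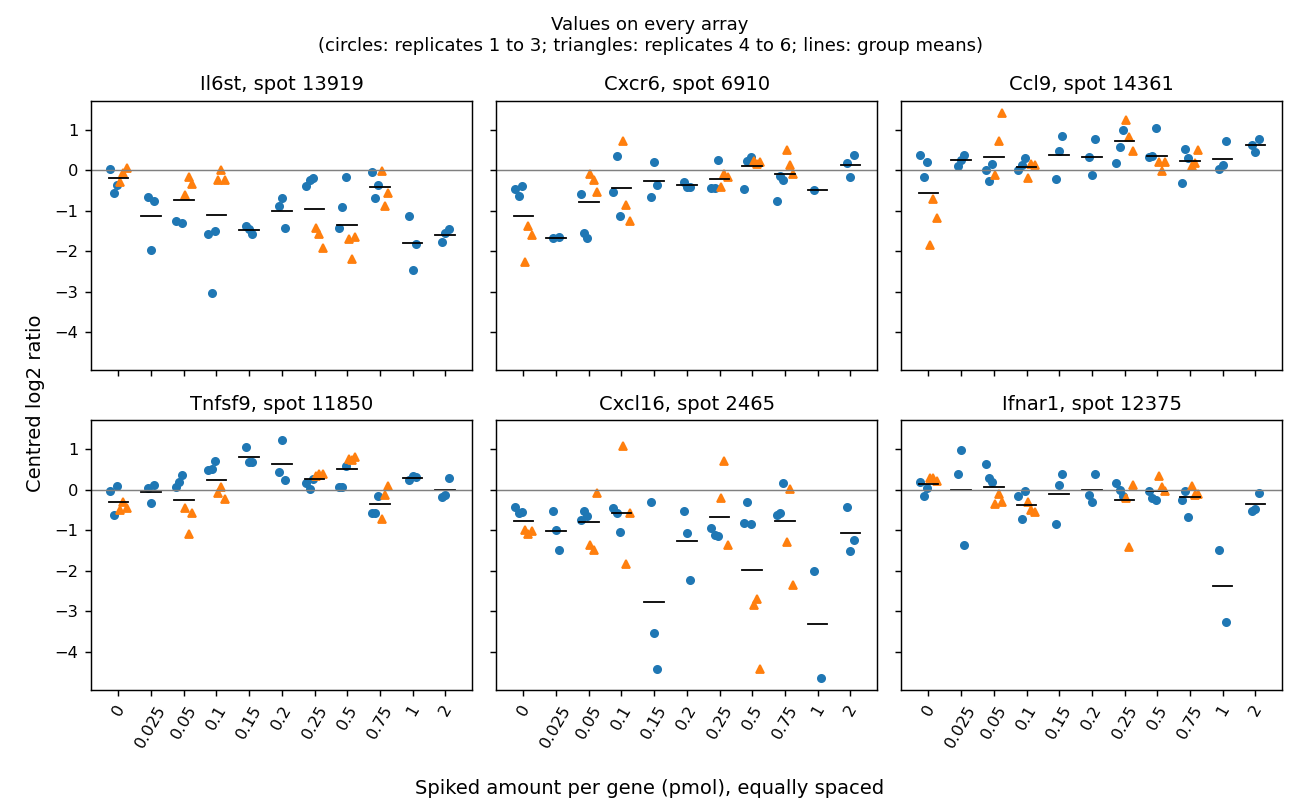
Centred log2 ratio (vertical) of Il6st, Cxcr6, Ccl9, Tnfsf9, Cxcl16 and Ifnar1 on every array by spiked amount (horizontal, pmol, equally spaced), with circles for replicates 1 to 3, triangles for replicates 4 to 6 and lines for group means. Cxcr6 runs from group means of -1.12 at 0 pmol and -1.66 at 0.025 pmol to 0.13 at 2 pmol, and Ifnar1 has its lowest mean, -2.37, at 1 pmol, with single values of -1.37 at 0.025 pmol and -1.41 at 0.25 pmol.

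In the TNF family, Tnfsf9, the 4-1BB ligand that costimulates T cells, passed at 3 amounts in the middle of the range. At 0.15 pmol it read 1.06, 0.69 and 0.69, against unspiked values of -0.03, -0.61, 0.10, -0.49, -0.29 and -0.45. The groups did not overlap, as for 21.5% of all features at 0.15 pmol, and the difference was 1.11 (SE 0.26, limma adjusted p 0.00248). It was 0.93 (0.0138) at 0.2 pmol and 0.80 (0.00384) at 0.5 pmol, and the 0.2 pmol call was lost without 0.2 pmol replicate 2 (0.64, adjusted p 0.233). At 0.75 and 2 pmol the probe was back at means of -0.34 and -0.01. Its values did not therefore rise with the amount. The 0.15 pmol difference also passed against unspiked replicates 1 to 3 alone (0.99, adjusted p 0.042), and was 0.50 (0.505) with array set as a covariate. Tnfsf4 passed at 0.1 pmol only, through replicates 4 and 5 at 1.20 and 1.05 among values from -0.65 to 0.16 on the other 4 arrays. Its difference there was 0.81 (SE 0.25, limma adjusted p 0.0354), and it lost its call in the absence of 6 single arrays (adjusted p up to 0.155). The paired spots of replicates 4 and 5 correlated with r of 0.402 and 0.455, and without the 5 arrays under 0.5 the difference was 0.38 (adjusted p 0.38).

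The TNF receptors were called at 1 pmol alone. Tnfrsf21 read -0.26 and -4.07 on the 2 arrays that measured it, a difference of -2.32 (SE 0.46, limma adjusted p 6.02e-05) that came from replicate 3. Tnfrsf11b, osteoprotegerin, the decoy for the osteoclast factor RANKL, read -0.38 and -0.93, a difference of -0.72 (adjusted p 0.0244), which was -0.65 (0.0515) without unspiked replicate 5. Tnfrsf1a, the main receptor for TNF itself, passed at no amount. At the other 9 amounts the Tnfrsf21 estimate was also negative but passed at none. The TNF-induced proteins Tnfaip1, Tnfaip3 and Tnfaip8l2 passed at no amount. Over the spiked arrays Tnfaip1 ran from -0.82 to 0.77 (median 0.18), Tnfaip3 from -0.71 to 0.83 (median 0.04) and Tnfaip8l2 from -1.66 to 0.74 (median 0.04).

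Of the interferon receptors, Ifnar1 passed at 1 pmol, where it read -1.48 and -3.26 against unspiked values from -0.15 to 0.30. The difference was -2.52 (SE 0.40, limma adjusted p 1.55e-06), the smallest adjusted p among these probes in any comparison with 0 pmol. On replicate 3, which held the -3.26, Cxcl16, Tnfrsf21 and the Ccr9 probes were low too, and the Ccr9 probes at spots 2172 and 13425 both read -2.34. On that array Ifnar1, Cxcl16, Tnfrsf21 and the Ccr9 probes at spots 10928 and 13425 were each measured by 1 spot of the pair. Ifngr1, the binding chain for interferon gamma, passed at no amount and was positive on 34 of 45 spiked arrays. The colony-stimulating factor receptors Csf1r, of macrophages, and Csf3r, of granulocytes, passed at no amount either. Csf3r was measured on 0 arrays at 1 pmol, and at 0.25 pmol replicate 1 it read 1.32, as did Ccr2 and Il1rap, because all measured spots of these 3 probes held the deposited value 0 there.

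The slope over the 45 spiked arrays asks whether a ratio changed with each doubling of the amount. It passed for 8 of 32 probes, 6 positive and 2 negative, where 23.1% of all features passed. The positive slopes were those of Ccr2 (0.26 per doubling, SE 0.08, limma adjusted p 0.0116), Cxcr6 (0.21, SE 0.05, 0.00095), Il17rc (0.16), Tnfaip8l2 (0.12), Csf1r (0.11) and Il17re at spot 13265 (0.11). The slope of Ccr2 was 0.18 (adjusted p 0.0613) without 0.025 pmol replicate 2, which held its lowest value, -4.37. The negative ones were those of Il15ra (-0.19, SE 0.06, adjusted p 0.0239) and Tnfsf4 (-0.10, 0.0249). The slope of Il15ra missed the threshold without 0.025 pmol replicate 2 or 2 pmol replicate 3, that of Tnfsf4 without 2 pmol replicate 2 or 3, and that of Il17rc without 0.025 pmol replicate 3. The slopes of Il17re, Csf1r and Tnfaip8l2 missed it without 24, 15 and 4 single arrays in turn (adjusted p up to 0.114), 2 pmol replicate 3 among them each time. With array set as a covariate, 0 of the 32 probes had a called slope, and the slope of Cxcr6 was 0.13 (limma adjusted p 0.329).

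Genes that act downstream of these receptors were looked at through a list of 68 genes, of which 18 were measured by 20 probes. At 2 pmol 5 of the 20 probes passed, 1 positive and 4 negative, against 15.6% of all features. Traf4, a TNF receptor-associated adaptor, had the largest difference (-3.61, SE 0.63, limma adjusted p 2.15e-05) and was among the 100 lowest features at 2 pmol. Stat3, the transcription factor used by Il6st, differed by -1.54 (SE 0.42, adjusted p 0.0068). The 2 probes of Socs2, a feedback inhibitor of cytokine signalling, differed in opposite directions, by -1.09 (0.00284) at spot 13573 and by 0.92 (0.0117) at spot 1243. Against the shares over all features given above, 4 of 14 tested probes of the list passed at 1 pmol (42.5% of all features), 4 of 20 at 0.5 pmol (25.1%) and 0 or 1 of 20 at the other amounts. The mean of the unspiked arrays was off 0 for 8 of 20 probes of the list, 4 positive and 4 negative, where 25.2% of all features were, and 4 of 20 had a called slope, where 23.1% did.

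Place on the print grid set few of the 32 probes next to a strongly shifted feature. Of the 32, 3 (9.38%) had a neighbouring spot pair among the 100 highest or lowest at 2 pmol, against 14.2% of features outside those lists. These were Il25, Tnfrsf21 and Il31ra, with differences at 2 pmol of 0.41, -0.17 and -0.39, none past the threshold. The probes called at 2 pmol, of Il17re, Cxcr6, Ccl9 and Il6st, had no such neighbour.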

How the data were processed

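The authors deposited a log2 ratio per spot (base read from the values); intensities were not used here. Background correction and normalisation are not given in the sources used here. The members and gene lists were chosen with earlier results of these data known. Each of 51 arrays was centred on its median, pairs of spots 22 positions apart were averaged, 528 control probes were left out, and 7920 features remained. The deposited value 16.61, an upper limit, was treated as missing. Symbols came from the platform annotation, and all 32 were matched to RefSeq names. Tests were made with limma 3.58.1 in R 4.3.3 in 1 fit with 11 group means, two-sided, adjusted over all features, with at least 2 measured arrays per group (10 for the slope), and were checked on simulated data. The simulated noise was independent between arrays and held no array sets, so that check does not cover the sets seen here. Named probes were up to 3 each way with the largest called value in each of 12 tests, the 3 widest and 3 narrowest unspiked spreads, probes called in 5 or more comparisons, genes with several probes and up to 4 called downstream genes; others are named to account for every member, after their values were seen. Replicate numbers did not pair the arrays: correlations of same-numbered arrays' deviations ran from -0.27 to 0.23. Alternatives covered centring, scaling, spots, upper limit, filter, array set, arrays in the fit and unspiked arrays used. B and plasma cell markers (2 probes, 1 called at 2 pmol) and T, NK and myeloid markers (4 probes, 2 called) hold no level here. Results and figures were made with pandas 2.3.3, numpy 2.4.6 and matplotlib 3.10.9 in Python 3.11.15, and the R package data.table, version 1.17.8, read the files.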

Additional observations from a re-analysis of the deposited data

Results flagged for a closer look

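In groups of 4 to 10 arrays, 13 of 114 groups of the 19 named probes held an array far from the others by Dixon's ratio of gap to range. The cutoff is one that about 1 of 20 groups of random values meets. The probes were named in part for large or widely spread values in these same data, so the 13 groups cannot be compared with that rate. The same count over all features is not given here. The groups share arrays and are not independent. Among the unspiked arrays these were Il7r at -1.46 on replicate 3 (others -0.61 to -0.40), Il18bp at -0.42 on replicate 2 (others 0.06 to 0.25) and Ccr2 at 2.46 on replicate 5 (others -2.19 to -0.50).

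On the 0.75 pmol arrays, replicate 4 stood apart for 3 probes: the Il17re probe at spot 13265 read -0.90 (others 0.43 to 0.94), Tnfrsf21 read -1.70 (others -0.37 to 0.06) and the Ccr9 probe at spot 13425 read -1.12 (others -0.35 to -0.01). The paired spots of this array correlated least of all arrays, with r of 0.198. At 0.5 pmol, replicate 1 stood apart for Cxcr6 at -0.46 (others 0.16 to 0.33), for Il7r at 0.35 (others -0.24 to -0.04) and for the Ccr9 probe at spot 10928 at -1.48 (others -0.01 to 0.62), and replicate 3 for Ccl9 at 1.04 (others -0.01 to 0.34). The rest were the Ccr9 probe at spot 10928 at -4.65 on 0.05 pmol replicate 2 (others -1.31 to 0.42), Il18bp at 1.93 on 0.05 pmol replicate 6 (others -0.32 to 0.49) and Ifnar1 at -1.41 on 0.25 pmol replicate 5 (others -0.21 to 0.18).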

How the results depend on the processing

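Counts of called probes depended on several choices; the cause was not tested. Amounts are given in pmol, each against 0 pmol. Counts in this section are of the 32 probes unless all features are named. Where no count over all features is given, they do not set these probes apart from the array. Without centring, 32 probes were off 0 on the unspiked arrays, 0 were called at 0.025, 0.1, 0.15, 0.2, 0.75 and 1, 2 at 0.25, 30 at 0.5 and 14 at 2, and 1 had a called slope. Over all features 7900 of 7920 were then off 0 unspiked, 7171 were called positive and 60 negative at 0.5, and 2782 and 81 at 2. With arrays scaled to 1 spread, 0 of the 32 probes were called at 0.025, 1 at 0.1 and 2 at 1. Over all features 24 were then called positive and 50 negative at 0.025, 424 and 238 at 0.1, and 456 and 844 at 1. Among features measured on all 51 arrays, which hold 10 of the probes, 1 was off 0 unspiked, 0 were called at 0.025, 0.1 and 0.75, 1 at 0.05 and 2, 2 at 0.15, 0.25, 0.5 and 1, and 3 had a called slope. With the first spot of each pair, 0 were called at 0.025 and 0.75, 1 at 0.05, 0.1, 0.15 and 1, 2 at 2, and 4 slopes. With array set as a covariate, 0 were called at 0.025, 0.15 and 0.2, 2 at 0.05, 0.25 and 2, 3 at 0.5, 4 at 0.1 and 0 slopes. The 1 pmol arrays formed a set alone and gave no value. For the same reason the unspiked mean cannot be told apart from the set terms in this fit, so no count is given for it. Fitted on their own groups, 0 were called at 0.025, 0.1 and 0.75, 2 at 0.15, and 5 at 0.2 and 1. Centring each print block, chosen after seeing the data, gave 2 at 0.05 and 5 slopes. Over all features it gave 200 positive and 173 negative calls at 0.05, and 1125 positive and 924 negative slopes.

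With unspiked replicates 1 to 3 as the only controls, also chosen after seeing the data, 0 were off 0 unspiked, 0 were called at 0.025, 0.1, 0.2, 0.25, 0.75 and 2, and 1 at 0.15 and 0.5. With replicates 4 to 6, 4 were called at 0.025 and 0.05, 5 at 0.1 and 6 at 0.2. With the replicate block, 1 probe was called at 0.05 pmol, and the counts of the other 11 tests stayed within 1.5 times; every replicate shared only a number. Leaving out 1 array at a time, the counts ran from 1 to 8 unspiked, 0 to 1 at 0.025, 0 to 2 at 0.05 and 0.1, 1 to 4 at 0.15, 0 to 5 at 0.2, 2 to 5 at 0.25, 5 to 7 at 0.5, 1 to 3 at 0.75, 3 to 10 at 1, 1 to 4 at 2 and 4 to 10 for the slope. The low count at 1 pmol is in part a loss of tests. Without 1 pmol replicate 3, the called probes of Cxcl16, Ifnar1, Tnfrsf21, Tnfrsf11b and Ccr9 (spot 2172) had fewer than the 2 arrays a test needs. The lowest counts came without unspiked replicate 6 (offset), 0.025 pmol replicate 2, 0.15 pmol replicate 2 or 3, 0.2 pmol replicate 2, 1 pmol replicate 3, 2 pmol replicate 3 and, for the slope, 0.025 pmol replicate 2 or 2 pmol replicate 3; 0.1, 0.15, 0.25 and 0.75 pmol also fell without any of unspiked replicates 4 to 6. Among the 49 called results of single probes, 4 estimates turned sign under these alternatives: Il6st at 0.5 pmol to 0.89 without centring and to 0.28 with array set as a covariate, Il6st at 2 pmol to 1.68 with upper limit values kept, and the unspiked mean of Ccl9 to 0.14 with replicates 1 to 3 alone. The second spot of each pair, and the fit without the 5 arrays whose paired spots correlated under 0.5, kept all counts within 1.5 times, though single calls were lost, that of Tnfsf4 at 0.1 pmol in both.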
